A study of Homo sapiens with 12 samples.

Results

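Actin filaments carry the shape and movement of a melanoma cell, and 44 genes of the actin cytoskeleton were followed in A375 cells, a line established from a human malignant melanoma. The genes were taken from a written list of symbols, from the actins to the proteins that nucleate, elongate, cap, sever, crosslink and anchor filaments. All 44 were present among the 4918 genes analysed here, whose symbols run from A1BG to FAM46B, and 3407 of those 4918 genes had a mean FPKM within the range of the members. FPKM is the number of fragments per length of transcript, scaled to the mapped fragments of the library. The study sequenced mRNA of A375 cells in 4 groups of 3 samples: control cells, labelled as not treated; cells given SB-3CT, a small-molecule inhibitor of the gelatinases MMP2 and MMP9; cells given interferon gamma (IFNγ), the T cell cytokine that induces PD-L1; and cells given SB-3CT with IFNγ. Treatment lasted 24 h, no dose is given for these libraries in the sources used here, and the treatment notes name a vehicle that the control label does not. All 12 samples come from this one line grown in culture. The labels do not say whether the 3 samples of a group were separate cultures, so the p-values measure the spread between these samples, which may be technical.

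Actin monomers assemble into polar filaments, and the Arp2/3 complex, switched on by the WAVE complex, starts new branches on the side of existing filaments, while formins and Ena/VASP proteins lengthen unbranched ones. Capping proteins block the growing ends, cofilins sever and depolymerise old filaments, and alpha-actinins, calponins and caldesmon bundle or stabilise what remains. Many actin genes are controlled by serum response factor (SRF), which binds the CArG box and works with MRTF, a coactivator that senses free actin.

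The CArG box was searched on both strands in RefSeq windows of 250 bases before to 50 bases after each annotated start (GRCh38.p14). A window was held for 40 of the 44 members, in 77 windows, and not for ACTB, ARPC1B, CTTN or EPS8. The box was found in 3 of the 77 windows (3.9%) and in 454 of all 35116 windows (1.29%), so only the 3 windows that hold it are shown, with the box in capitals and the gene's strand read 5′ to 3′. A match is a description of the letters and not a shown binding site. The ACTG1 window lies at chr17:81512750-81513049 on the minus strand with the box starting 94 bases before the start, the ACTN1 window at chr14:68977517-68977816 on the minus strand with the box 171 bases before, and the CNN2 window at chr19:1026358-1026657 on the plus strand with the box 89 bases before.
ACTG1: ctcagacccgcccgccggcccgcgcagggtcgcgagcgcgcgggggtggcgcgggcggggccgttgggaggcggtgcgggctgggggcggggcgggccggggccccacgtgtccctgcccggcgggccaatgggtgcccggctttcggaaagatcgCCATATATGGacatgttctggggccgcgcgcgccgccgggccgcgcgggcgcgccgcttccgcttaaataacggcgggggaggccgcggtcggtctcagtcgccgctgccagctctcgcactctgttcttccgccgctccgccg
ACTN1: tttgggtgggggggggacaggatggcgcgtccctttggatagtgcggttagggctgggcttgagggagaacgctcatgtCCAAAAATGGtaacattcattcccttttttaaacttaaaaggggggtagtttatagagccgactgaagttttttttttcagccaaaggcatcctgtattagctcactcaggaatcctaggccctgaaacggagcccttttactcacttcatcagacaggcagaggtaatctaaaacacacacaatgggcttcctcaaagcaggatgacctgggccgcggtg
CNN2: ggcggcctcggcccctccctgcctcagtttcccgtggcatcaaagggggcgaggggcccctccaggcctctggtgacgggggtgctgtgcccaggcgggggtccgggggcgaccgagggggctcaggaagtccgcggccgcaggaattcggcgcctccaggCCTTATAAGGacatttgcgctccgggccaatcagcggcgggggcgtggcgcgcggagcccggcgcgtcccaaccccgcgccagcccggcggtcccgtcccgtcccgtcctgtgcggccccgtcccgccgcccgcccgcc

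In all 12 samples the 44 members together made up between 4.64% and 5.66% of the summed FPKM of the table. ACTB, ACTG1 and CFL1 alone made up 53.9% to 58.4% of the members' sum. By mean FPKM over the 12 samples, 2 members lay at 1000 or above, 10 between 100 and 1000, 24 between 10 and 100, 7 between 1 and 10, and 1 below 1. Cofilin 1 (CFL1), which severs filaments, was the highest at a mean of 1726 FPKM, and the formin DAAM1 was the lowest at 0.575 FPKM. The labelled line was checked against markers: melanoma genes CD63 (662 FPKM), AXL (46.7 FPKM) and CSPG4 (38.8 FPKM) were present while DCT was at 0.154 FPKM, and EPCAM (0.0583 FPKM), CD14 (0.0878 FPKM) and CDH5 (0.0456 FPKM) lay near 0. Other epithelial, leukocyte and endothelial markers were not: CLDN4 stood at 8.69 FPKM, CD68 at 26.0 FPKM and EGFL7 at 14.2 FPKM. Relative depth, read from the step size of low FPKM values, ran from 87.1% to 150.2% of the control mean, absolute depth is unknown, and no sample pair held identical values. These are bulk samples, in which fewer cells and less RNA per cell cannot be told apart.

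**Figure D1:**
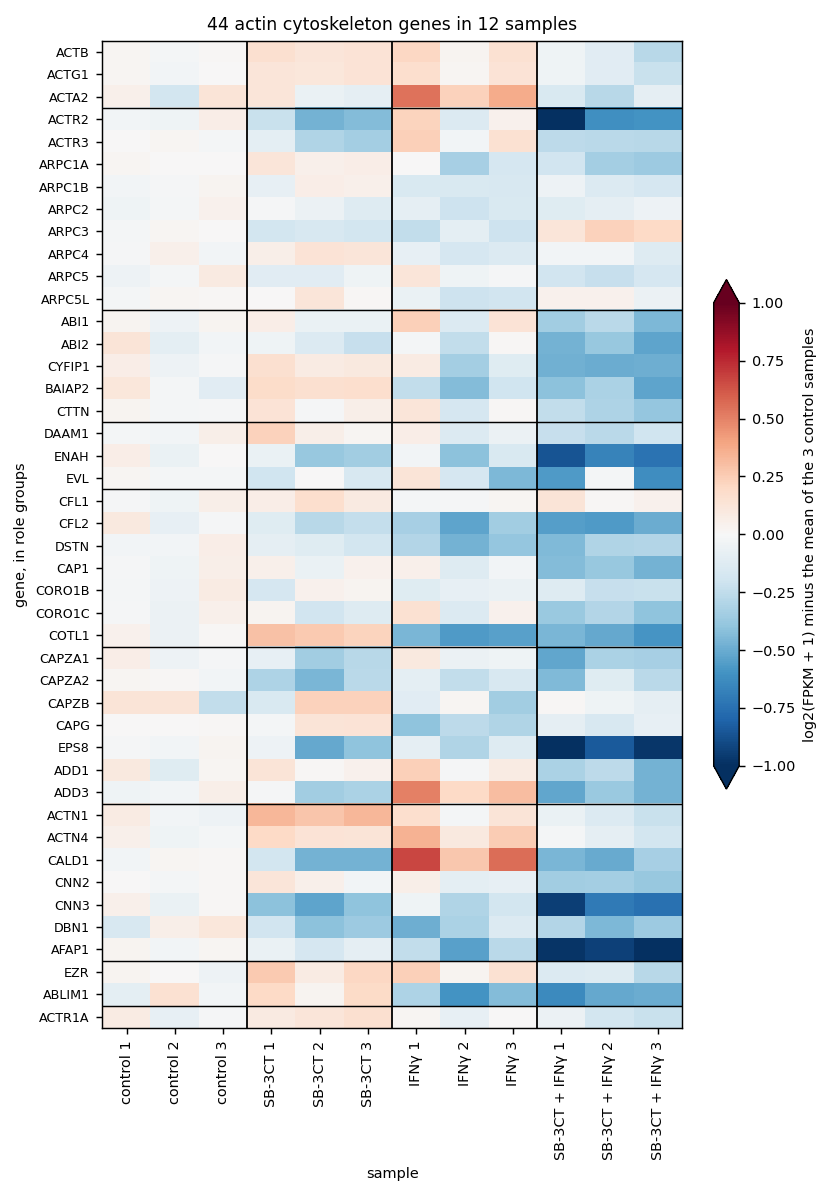
Heat map of the 44 genes (rows, in role groups) in the 12 samples (columns), coloured by log2(FPKM + 1) minus the mean of the 3 control samples, with colours ending at 1 in either direction. The 3 samples with SB-3CT and IFNγ are blue for most genes, ARPC3 is red there, and CALD1, ADD3 and ACTA2 are red in the 3 IFNγ samples.

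SB-3CT was added to IFNγ to see what the inhibitor changes in cells under the cytokine. In that comparison 25 of the 44 members fell and 2 rose (limma, Benjamini-Hochberg adjusted p under 0.05 over 4918 genes). The largest falls were those of CALD1, ACTR2, EPS8, ADD3 and AFAP1, and the rises were those of ARPC3 and CAPG. The background was high: 31.5% of all genes were lower and 6.41% higher, and among the 3407 genes in the members' FPKM range 42.1% were lower. The members' median change was -0.24 on the log2(FPKM + 1) scale, against -0.20 over all genes averaging 1 FPKM or more. With a fold over 1.5 and an unadjusted p under 0.05, 6 members were lower and 0 higher, where 6.51% of all genes were lower. The 3 samples of each group did not overlap for 26 members that were lower and 3 that were higher, against 39.6% and 9.35% of all genes.

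Much of this split depends on how the libraries are scaled. Median ratio scaling divides a sample by the typical ratio of its genes to their averages over samples, and it moved the median change of genes averaging 1 FPKM or more from -0.20 to 0.02. On that scale 9 members were lower and 9 higher, where 15.5% of all genes were lower and 16.5% higher. The 9 lower members were ACTA2, ADD1, ADD3, AFAP1, CALD1, CAP1, CNN3, ENAH and EPS8, all among the 25. The 9 higher ones were ARPC3 and CAPG together with ARPC1B, ARPC2, ARPC4, ARPC5L, CAPZB, COTL1 and DSTN. Quantile normalization gave 18 lower and 0 higher, where 714 of all 4918 genes were lower and 542 higher. ACTA2, ADD3, AFAP1, CALD1, CAP1, CNN3 and EPS8 were lower as deposited, on both of these scalings and after the length trend described later was removed.

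**Figure D2:**
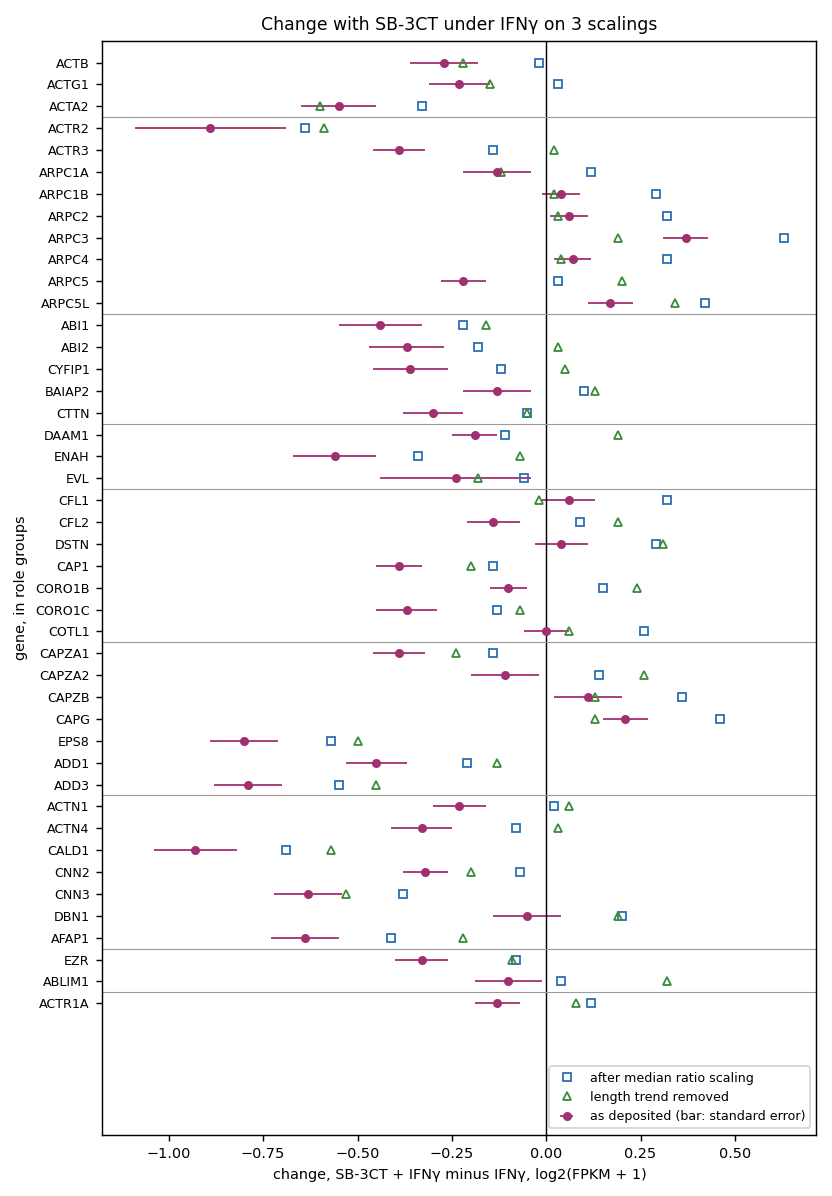
Change with SB-3CT under IFNγ for each of the 44 genes (rows, in role groups) on the log2(FPKM + 1) scale, as deposited (filled circles, bars are standard errors), after median ratio scaling (squares) and with the length trend removed (triangles). CALD1 and EPS8 stay left of -0.50 or at it in all 3, whereas ACTN1, ARPC5 and CYFIP1 lie near or right of 0 in at least 1.

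The 3 actin genes passed the test in the combination comparison, but only ACTA2 did so after median ratio scaling. ACTB (chr7:5566040-5603533, minus strand, hg19), beta-actin, stood at 1176, 1141 and 1169 FPKM in control, 1292, 1259 and 1282 with SB-3CT, 1342, 1187 and 1282 under IFNγ, and 1131, 1072 and 954 with both. Its 3 samples with both agents were lower than any IFNγ sample, and the change was -0.27 ± 0.09 (SE, adjusted p = 0.0483), or -0.02 after median ratio scaling. ACTG1 (chr17:79476439-79490873, minus strand), gamma-actin, read 784, 761 and 776 FPKM in control, 842, 836 and 852 with SB-3CT, 869, 784 and 853 under IFNγ and 753, 719 and 668 with both. That is a change of -0.23 ± 0.08 (adjusted p = 0.0491), which turned to 0.03 after median ratio scaling. Quantile normalization gave larger falls, of 0.37 for ACTB (adjusted p = 0.0243) and 0.42 for ACTG1 (adjusted p = 0.00522). As deposited, neither passed when any 1 of IFNγ replicates 1 and 3 or the 3 samples with both agents was left out, with changes between -0.33 and -0.20 for ACTB and between -0.27 and -0.18 for ACTG1. ACTA2 (chr10:90694831-90751096, minus strand), the smooth muscle actin, read 6.79, 5.65 and 7.2 FPKM in control, 7.15, 6.15 and 6.04 with SB-3CT, 9.9, 7.83 and 8.69 under IFNγ and 5.76, 5.21 and 6.07 with both. The IFNγ samples were the highest 3 of all 12. ACTA2 fell by 0.55 ± 0.10 (adjusted p = 0.00509) when SB-3CT was added to IFNγ, by 0.33 after median ratio scaling and by 0.26 after quantile normalization.

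The 9 genes of the Arp2/3 complex, which include the paralog pairs ARPC1A and ARPC1B and ARPC5 and ARPC5L, did not move together. In the combination comparison 1 rose, 3 fell and 5 were not called, with a median change of 0.04, and after median ratio scaling 5 were higher and 0 lower with a median of 0.29. ACTR2 (Arp2; chr2:65454922-65498387, plus strand) read 76.9, 76 and 82.5 FPKM in control, 67.2, 56.3 and 58 with SB-3CT, 91.5, 71.2 and 80.4 under IFNγ, and 30.0, 51.1 and 51.4 with both. Every sample with SB-3CT was lower than every sample without it, and replicate 1 with both agents was far below the other two. The change under IFNγ was -0.89 ± 0.20 (adjusted p = 0.0125), it was not called without IFNγ replicate 1 (-0.80) or 3 (-0.90), and after median ratio scaling it was -0.64 (adjusted p = 0.0511). ACTR3 (Arp3; chr2:114647640-114720173, plus strand) read 19.7, 19.9 and 19.4 FPKM in control, 18.3, 15.8 and 15.4 with SB-3CT, 23.4, 19.3 and 21.9 under IFNγ and 16.3, 16.2 and 16.1 with both. It fell by 0.39 ± 0.07 (adjusted p = 0.00653), with no overlap, but stood at -0.14 after median ratio scaling and 0.02 once the length trend was removed, and was called in neither.

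ARPC3 (chr12:110872628-110888227, minus strand), a small subunit of the complex, went the other way. It read 306, 313 and 309 FPKM in control, 274, 278 and 274 with SB-3CT, 261, 289 and 268 under IFNγ, and 338, 364 and 357 with both. The samples with both agents were the highest 3 of the 12 and those with SB-3CT alone were below every control sample. The rise under IFNγ was 0.37 ± 0.06 (adjusted p = 0.00412), and it was 0.14 (adjusted p = 0.122) after quantile normalization and 0.19 with the length trend removed. ARPC5, another small subunit, fell by 0.22 ± 0.06 (adjusted p = 0.0182) from 85.5, 76.4 and 78.1 FPKM to 68.5, 66.8 and 69.6 FPKM, a change that turned to 0.03 after median ratio scaling and to 0.20 with the length trend removed. Without IFNγ replicate 3 or any 1 of the samples with both agents ARPC5 was not called, at changes between -0.24 and -0.21. Its paralog ARPC5L was at 86.9, 78.7 and 80.1 FPKM with IFNγ and 94.1, 94.2 and 87.6 FPKM with both, a difference of 0.17 ± 0.06 that was not called (adjusted p = 0.0585).

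The remaining 4 subunits were not called in the combination comparison. ARPC2 stood at 143 ± 6.04 FPKM (SD, n = 3) with IFNγ and 149 ± 3.65 with both, and ARPC4 at 107 ± 3.33 and 112 ± 4.32. ARPC1B was at 242 ± 1.03 and 248 ± 10.3 FPKM and ARPC1A at 80.4 ± 9.4 and 73.2 ± 4.72. Reads of some members could have been shared with other annotated genes: 74.0% of the 150-base windows of the ARPC1A transcript and 73.3% of those of ARPC1B also occur in another annotated gene, as do 30.5% for ARPC4, 16.3% for CORO1B and 3.14% for ARPC3, so these levels are uncertain. The other 39 members, ACTB and ACTG1 included, share no such window.

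Of the 5 members of the WAVE complex and other promoters of branching, 4 fell and BAIAP2 was not called, and after median ratio scaling none of the 5 was called. ABI1 and ABI2, adaptors within the WAVE complex, changed by -0.44 ± 0.11 (adjusted p = 0.0193) and -0.37 ± 0.10 (adjusted p = 0.0228). CYFIP1, the Rac-binding subunit, read 26.8, 19.8 and 23.3 FPKM with IFNγ and 17.9, 17.6 and 17.7 with both, a change of -0.36 ± 0.10. Cortactin (CTTN), which steadies branch points, went from 81.6, 66.7 and 75.6 FPKM to 62.9, 60.5 and 57.2, a change of -0.30 ± 0.08. With the length trend removed ABI2 and CYFIP1 stood at 0.03 and 0.05. None of these 4 calls held without IFNγ replicate 1 (-0.36 for ABI1, -0.34 for ABI2, -0.26 for CYFIP1 and -0.24 for CTTN), without IFNγ replicate 3 (-0.41, -0.32, -0.36 and -0.29 in the same order) or without replicate 3 with both agents (-0.39, -0.34, -0.36 and -0.27).

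Among the elongation factors, ENAH, the Ena/VASP protein of filopodia and lamellipodia, read 9.93, 8.91 and 9.39 FPKM in control, 8.91, 7.01 and 7.14 with SB-3CT, 9.16, 6.85 and 8.37 under IFNγ and 4.74, 5.56 and 5.25 with both. It fell by 0.56 ± 0.11 (adjusted p = 0.00745) and by 0.34 after median ratio scaling, but stood at -0.07 with the length trend removed, and its transcript, at 13092 bases, is the longest of the 44. DAAM1 went from 0.569 ± 0.117 FPKM with IFNγ to 0.375 ± 0.0344 with both, a change of -0.19 ± 0.06 (adjusted p = 0.0459) that turned to 0.19 with the length trend removed. That trend was fitted on genes averaging 1 FPKM or more. DAAM1, at a mean of 0.575 FPKM, lies below that floor, so this turn is uncertain. As deposited, DAAM1 was not called without IFNγ replicate 1 or 3 or any 1 of the samples with both agents, at changes between -0.21 and -0.13. EVL was at 3.49, 2.66 and 2.01 FPKM with IFNγ and 1.77, 3.06 and 1.67 with both, and the groups overlapped.

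Of the 7 members of the cofilin family and filament turnover 2 fell under the combination, and the filament-severing cofilins CFL1 (0.06 ± 0.07) and CFL2 (-0.14 ± 0.07) and destrin DSTN (0.04 ± 0.07) were not called. CAP1, which recharges actin monomers, read 112, 99 and 106 FPKM with IFNγ and 80.2, 83.1 and 77.9 with both. It fell by 0.39 ± 0.06 (adjusted p = 0.00329) as deposited, by 0.14 after median ratio scaling (adjusted p = 0.0493) and by 0.20 with the length trend removed, and was called on each. CORO1C, a coronin of the cell edge, fell by 0.37 ± 0.08 (adjusted p = 0.0103), and without IFNγ replicate 3 (-0.36) or replicate 3 with both agents (-0.35) it was not called, nor after median ratio scaling (-0.13) or with the length trend removed (-0.07). CFL1 held 1666, 1631 and 1739 FPKM in control, 1752, 1880 and 1787 with SB-3CT, 1650, 1663 and 1703 under IFNγ and 1832, 1689 and 1722 with both.

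Of the 7 capping proteins, 4 fell and CAPG rose. EPS8, which caps and bundles filaments in protrusions, read 20.3, 19.9 and 20.9 FPKM in control, 19.7, 14 and 15.2 with SB-3CT, 19.1, 16.4 and 18.5 under IFNγ and 8.89, 10.9 and 9.94 with both, the lowest 3 of the 12. Its fall was 0.80 ± 0.09 (adjusted p = 0.00207) as deposited and 0.50 (adjusted p = 0.00163) with the length trend removed. ADD3 and ADD1, adducins that cap filaments under the membrane, fell by 0.79 ± 0.09 (adjusted p = 0.00207) and 0.45 ± 0.08 (adjusted p = 0.00593), and with the length trend removed stood at -0.45 and at -0.13, the latter not called. ADD3 read 18.3, 18.4 and 19.7 FPKM in control, 18.8, 14.6 and 14.9 with SB-3CT, 27.1, 21.8 and 23.6 under IFNγ and 12.9, 14.4 and 13.3 with both, so that the IFNγ samples were the highest and the samples with both agents the lowest. CAPZA1, the alpha subunit of capping protein, fell by 0.39 ± 0.07 (adjusted p = 0.00628), or 0.14 after median ratio scaling, where it was not called. Its partner CAPZB was at 87.6 ± 11.1 and 93.8 ± 3.24 FPKM and was not called. CAPG, a capping gelsolin relative, rose by 0.21 ± 0.06 (adjusted p = 0.0225) from 152, 167 and 163 to 189, 179.7 and 189.8 FPKM. It was not called without IFNγ replicate 3 (0.22) or replicate 1 or 3 with both agents (0.20 each). Nor was CAPG called after quantile normalization (0.09) or with the length trend removed (0.13, adjusted p = 0.0527).

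Of the 7 crosslinkers and stabilisers 6 fell, 3 of them also after median ratio scaling. Caldesmon (CALD1; chr7:134429003-134655480, plus strand), which steadies filaments against severing, read 15.9, 16.5 and 16.4 FPKM in control, 14.2, 11.5 and 11.5 with SB-3CT, 26.5, 19.8 and 24.5 under IFNγ and 11.6, 11.2 and 12.8 with both. All IFNγ samples were above every other sample. The fall of CALD1 under IFNγ, 0.93 ± 0.11 (adjusted p = 0.00209), was the largest of the 44 and was 0.57 (adjusted p = 0.00172) with the length trend removed. Calponin 3 (CNN3) read 61.8, 56.5 and 60.1 FPKM in control, 44.6, 41 and 44.8 with SB-3CT, 57.9, 48.1 and 52.4 under IFNγ and 30.5, 36.1 and 35 with both, a fall of 0.63 ± 0.09 (adjusted p = 0.0027), or 0.38 after median ratio scaling. AFAP1, a Src partner on stress fibres, fell by 0.64 ± 0.09 (adjusted p = 0.00278), from 17.5, 14.2 and 17.2 to 10.1, 10.6 and 9.36 FPKM, and by 0.22 (adjusted p = 0.0304) with the length trend removed. The alpha-actinins ACTN4 and ACTN1 changed by -0.33 ± 0.08 (adjusted p = 0.0138) and -0.23 ± 0.07 (adjusted p = 0.0304), and these turned to 0.03 for ACTN4 with the length trend removed and to 0.02 for ACTN1 after median ratio scaling. Neither alpha-actinin was called without IFNγ replicate 1 or 3 or replicate 2 or 3 with both agents, at changes between -0.33 and -0.27 for ACTN4 and between -0.24 and -0.20 for ACTN1. Of the linkers, ezrin (EZR), which ties filaments to the plasma membrane, fell by 0.33 ± 0.07 (adjusted p = 0.0102), but was at -0.08 after median ratio scaling (adjusted p = 0.301) and -0.09 with the length trend removed, and was not called without IFNγ replicate 3 (-0.32). ABLIM1 was not called (-0.10 ± 0.09). ACTR1A, the actin-related protein of dynactin, was at 55 ± 2 and 50.2 ± 3.01 FPKM and was not called either.

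**Figure D3:**
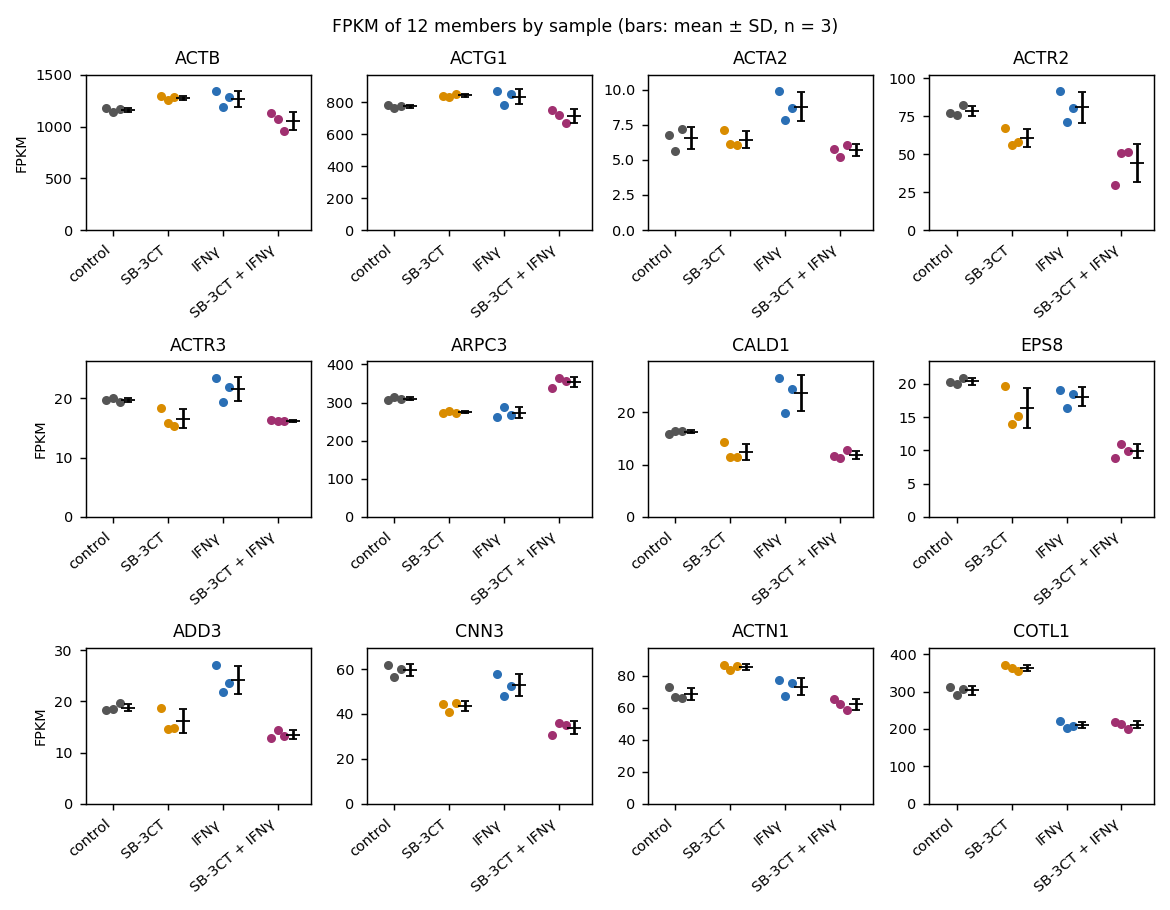
FPKM (vertical axes, starting at 0) of 12 members in the 12 samples, one point per sample, with the mean ± SD of the 3 samples of each group beside them. CALD1, ADD3 and ACTA2 are highest with IFNγ and low again with both agents, ARPC3 is highest with both, and COTL1 is highest with SB-3CT and near 211 FPKM in both groups with IFNγ.

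Transcript length moved with these changes. Across the 44 members the change with SB-3CT under IFNγ correlated with log2 transcript length at r = -0.49, and across 3165 genes averaging 1 FPKM or more at r = -0.60, a description across genes of the same 6 libraries. Among the 14 members under 2000 bases, 2 were higher and 4 lower (28.6%) with a median change of 0.02, where 10.1% of 881 genes of that length were lower. Of those 881 genes 212 were higher, and their median change was 0.07. Among the 15 of 2000 to 4000 bases 10 were lower (66.7%), against 43.1% of 1170 genes, and among the 15 of 4000 bases or more 11 were lower (73.3%), against 68.3% of 1114 genes. The risers ARPC3 and CAPG have 946 and 1250 bases, and ENAH, ARPC5 and ACTR3 have 13092, 7266 and 6589. When the trend of level on length was removed from each sample, r was 0.09 over the members, 10 were lower and 9 higher, and 15.3% of all genes were lower and 28.4% higher. Among the 3407 genes in the members' FPKM range, 572 were lower and 628 higher on that scale. ACTA2, at 1349 bases, kept its fall, with 0.60 lower (adjusted p = 0.00258). The part of length in the result was not tested beyond this.

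**Figure D4:**
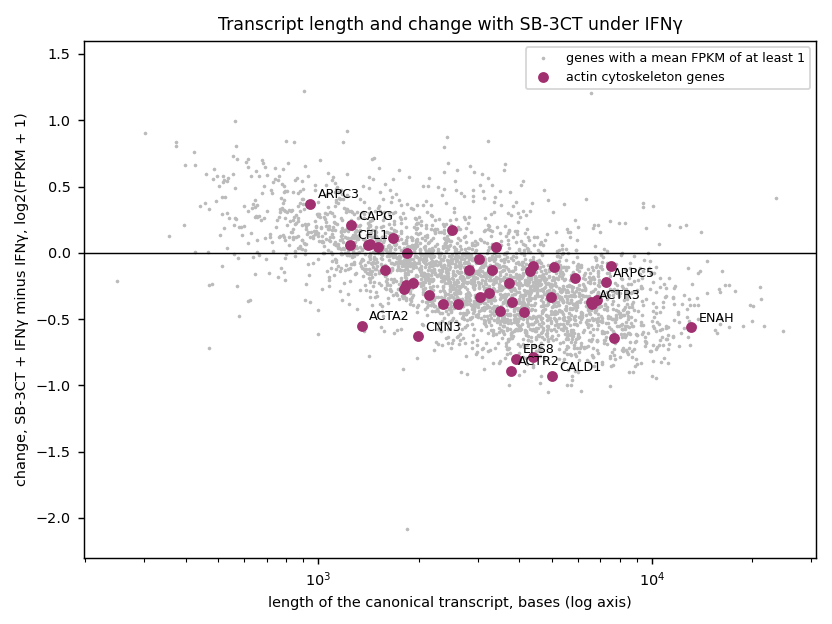
Change with SB-3CT under IFNγ (vertical axis, log2(FPKM + 1) scale) against the length of the canonical transcript in bases (log axis) for the 44 members (large points) and all genes averaging 1 FPKM or more (small grey points). Both sets slope downwards, with r = -0.49 over the members and -0.60 over the genes.

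SB-3CT alone was compared with control to see what the inhibitor does without the cytokine. Here 2 of 44 members rose and 5 fell, with 5.37% of all genes higher and 6.87% lower, and the members' median change was -0.01. In the members' FPKM range 249 of 3407 genes were higher and 314 lower. The alpha-actinin ACTN1 (chr14:69340845-69446157, minus strand), which bundles stress fibres, rose by 0.31 ± 0.05 (adjusted p = 0.0128) from 72.7, 66.9 and 66.1 FPKM in control to 86.7, 83.3 and 86.2, with no overlap. COTL1, a cofilin-like binder of filaments, rose by 0.26 ± 0.05 (adjusted p = 0.0188) from 312, 290.5 and 306 to 371, 364 and 355 FPKM. CNN3 fell by 0.44 ± 0.05 (adjusted p = 0.00596), ACTR2 by 0.37 ± 0.07 (adjusted p = 0.0239), CALD1 by 0.37 ± 0.08 (adjusted p = 0.0338), CAPZA2 by 0.35 ± 0.06 (adjusted p = 0.0169) and ARPC3 by 0.17 ± 0.04 (adjusted p = 0.0329). CAPZA2, the other alpha subunit of capping protein, read 44, 43.6 and 42.3 FPKM in control, 34.8, 31.1 and 35.9 with SB-3CT, 40.3, 36.2 and 38.7 under IFNγ and 31.6, 39.7 and 35.8 with both. ACTN1, CNN3, ACTR2, CALD1 and CAPZA2 were called as deposited and on all 3 other scalings, while COTL1 was not called after quantile normalization and ARPC3 not after median ratio scaling.

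The calls with SB-3CT alone rested on few samples. Every one of the 7 was lost when some single sample was left out: CNN3 only without control replicate 3 (-0.44, adjusted p = 0.0501), ACTN1 without SB-3CT replicate 2 (0.33) or 3 (0.31) or control replicate 2 (0.30) or 3 (0.29), and CAPZA2 without SB-3CT replicate 3 or any control sample, at changes between -0.39 and -0.33. ACTR2, CALD1, COTL1 and ARPC3 were lost without SB-3CT replicate 2 or 3 or any control sample, at changes between -0.40 and -0.32 for ACTR2, -0.39 and -0.32 for CALD1, 0.23 and 0.28 for COTL1 and -0.18 and -0.16 for ARPC3. Without SB-3CT replicate 1, in contrast, 11 members were lower. The count over all genes in that fit is not given, so this is not read as a trait of the members. Over all 4918 genes the median log2(FPKM + 1) was 2.17 in SB-3CT replicate 1 and 2.05 and 2.1 in replicates 2 and 3. With the length trend removed 9 members were higher and 5 lower, where 385 of all 4918 genes were higher and 305 lower. After median ratio scaling 4 members were higher and 4 lower, where 362 of all genes were higher and 318 lower.

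IFNγ alone was compared with control to give the response to the cytokine itself. Of the members 2 were higher and 7 lower, with 8.46% of all genes higher and 11.0% lower, and a median change of -0.09. In the members' FPKM range 365 of 3407 genes were higher and 495 lower. CALD1 rose by 0.50 ± 0.10 (adjusted p = 0.0205) and ADD3 by 0.34 ± 0.08 (adjusted p = 0.0332), with no overlap between groups. COTL1 (chr16:84599202-84651684, minus strand) fell most, by 0.52 ± 0.05 (adjusted p = 0.00135), from 312, 290.5 and 306 FPKM in control to 220.5, 204 and 209. ABLIM1, an actin-binding LIM protein, fell by 0.45 ± 0.10 (adjusted p = 0.0291), CFL2 by 0.40 ± 0.08 (adjusted p = 0.0159), DSTN by 0.38 ± 0.06 (adjusted p = 0.00826), AFAP1 by 0.36 ± 0.08 (adjusted p = 0.0293), CAPG by 0.32 ± 0.05 (adjusted p = 0.00591) and ARPC1B by 0.15 ± 0.04 (adjusted p = 0.038). Of the cofilin family, DSTN read 167, 168 and 179.9 FPKM in control and 140.4, 123 and 131 with IFNγ, and CFL2 14.1, 12.4 and 13.1 against 10.2, 8.81 and 10.1, while CFL1 was at 1679 ± 55.3 and 1672 ± 27.5. ARPC1B was the only one of these 9 not called on at least 1 of the other 3 scalings.

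CAPG, COTL1 and DSTN kept their IFNγ calls without any single sample. CALD1, ADD3 and AFAP1 lost theirs without IFNγ replicate 3 or any control sample, ABLIM1 without IFNγ replicate 2 or 3 or any control sample, CFL2 without control replicate 1 (-0.36) or 3 (-0.41), and ARPC1B without IFNγ replicate 1 or 3 or any control sample, with changes between 0.47 and 0.51 for CALD1, 0.32 and 0.38 for ADD3, -0.40 and -0.35 for AFAP1, -0.51 and -0.38 for ABLIM1 and -0.16 and -0.14 for ARPC1B. After median ratio scaling 6 members were higher and 7 lower, where 596 of all 4918 genes were higher and 500 lower. IFNγ replicate 2 was the lowest of its group for 36 of the 44 members and IFNγ replicate 1 the highest for 36. The median log2(FPKM + 1) of all 4918 genes was also lowest in IFNγ replicate 2 (2.13) and highest in replicate 1 (2.26). Because the SB-3CT and IFNγ comparisons share their control samples, each is given here only by its own values.

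The change with SB-3CT under IFNγ was then set against the change with SB-3CT alone in a fit over all 12 samples. For 19 of the 44 members the change under IFNγ was lower than the change without it, and for ARPC3 it was higher, where 17.6% of all genes were lower and 4.74% higher, with a median difference of -0.26 over the members and -0.19 over genes averaging 1 FPKM or more. In the members' FPKM range 831 of 3407 genes were lower and 218 higher. ARPC3 changed by -0.17 without IFNγ and 0.37 with it, a difference of 0.54 ± 0.07 (adjusted p = 0.00216) that was called on each scaling. ACTN1 changed by 0.31 without and -0.23 with IFNγ, a difference of -0.55 ± 0.08 (adjusted p = 0.00378). The 4 group means of ACTN1 were 68.6 ± 3.61 FPKM in control, 85.4 ± 1.8 with SB-3CT, 73.2 ± 5.13 under IFNγ and 62 ± 3.27 with both, so the samples with SB-3CT alone were the highest.

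ADD3 (-0.57 ± 0.14, adjusted p = 0.0154), CALD1 (-0.55 ± 0.15, adjusted p = 0.0218), ACTA2 (-0.53 ± 0.14, adjusted p = 0.0236) and AFAP1 (-0.53 ± 0.10, adjusted p = 0.00786) had, with ACTN1, the largest negative differences. Those of ACTN1, ACTN4 (-0.49 ± 0.09), ADD1 (-0.51 ± 0.11), ADD3 and EZR (-0.51 ± 0.09) were also called on the other 3 scalings, whereas CALD1 (-0.36) and ACTA2 (-0.35) were not called after median ratio scaling and AFAP1 (-0.21) was not with the length trend removed. CALD1 lost its call without IFNγ replicate 1 (-0.47) or 3 (-0.52) or replicate 2 with both agents (-0.52), and ACTA2 without IFNγ replicate 1, SB-3CT replicate 1, control replicate 2 or replicate 2 with both agents, at -0.48 to -0.45. CNN3 and ACTR2, which fell in both settings, did not have a called difference (-0.18 ± 0.11 and -0.52 ± 0.24). After median ratio scaling 6 members were lower and 6 higher, where 257 of all 4918 genes were lower and 384 higher.

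**Figure D5:**
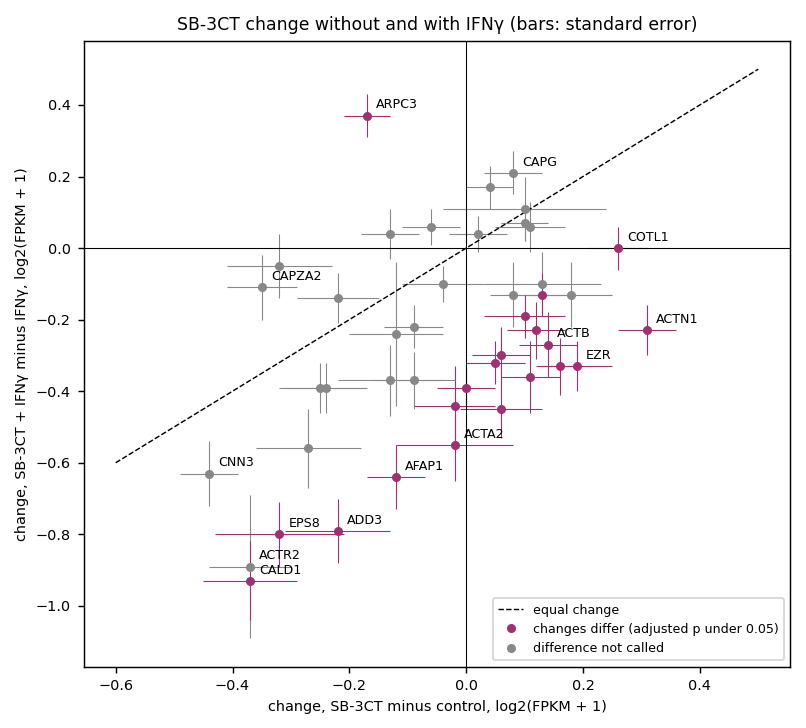
Change with SB-3CT under IFNγ (vertical axis) against the change with SB-3CT alone (horizontal axis) for the 44 members, both on the log2(FPKM + 1) scale, with standard errors as bars, equal change as the dashed line and called differences in magenta. ARPC3 lies above the line in the upper left, ACTN1 and COTL1 lie farthest right and below the line, and CNN3, ACTR2 and CALD1 are negative on both axes.

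Other genes of actin regulation came from a list of 67 symbols, some of them older names of genes also listed, and 64 symbols were in the table. Of these 64, 28 were lower and 2 higher under the combination, beside 31.5% and 6.41% of all genes, with a median change of -0.20. After median ratio scaling 15 were lower and 9 higher, beside 15.5% and 16.5%. The largest falls were those of anillin (ANLN, -0.82 ± 0.06, adjusted p = 0.00139), which organises the contractile ring, the angiomotin AMOT (-0.75 ± 0.13, adjusted p = 0.00483) and AFAP1L2 (-0.65 ± 0.10, adjusted p = 0.00305). CDC42EP1, an effector of the GTPase CDC42, rose by 0.57 ± 0.07 (adjusted p = 0.00234), from 8.45 ± 0.368 to 13 ± 0.898 FPKM. BRK1, the smallest WAVE subunit, rose by 0.41 ± 0.05 (adjusted p = 0.00222), from 176 ± 7.14 to 235 ± 2.65 FPKM. As deposited, BRK1 was thus higher where ABI1, ABI2 and CYFIP1 of the WAVE complex were lower. After median ratio scaling BRK1 stood at 0.67, while ABI1 (-0.22), ABI2 (-0.18) and CYFIP1 (-0.12) were not called. With the length trend removed ABI1, ABI2 and CYFIP1 were not called either, and BRK1 is not given on that scale. With SB-3CT alone 6 of the 64 rose and 4 fell (5.37% and 6.87% of all genes), with IFNγ alone 8 and 13 (8.46% and 11.0%), and the difference between the SB-3CT changes was called higher for 1 and lower for 18 (4.74% and 17.6%).

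Of 15 genes listed as targets of SRF and MRTF outside the 44, 5 fell under the combination, where 31.5% of all genes were lower. The median change of the 15 was -0.06, and 9 of them averaged 1 FPKM or more. After median ratio scaling 3 were lower and 2 higher, beside 15.5% and 16.5% of all genes. Whether SRF or MRTF acted on these genes was not tested. The 5 that fell as deposited were ANKRD1 (-0.88 ± 0.11, adjusted p = 0.00236), CRIM1 (-0.75 ± 0.08, adjusted p = 0.00207), CTGF (-0.59 ± 0.08, adjusted p = 0.00247), CYR61 (-0.33 ± 0.07, adjusted p = 0.00867) and DES, the muscle intermediate filament gene (-0.24 ± 0.07, adjusted p = 0.0228). DES was low, at 0.544 FPKM with IFNγ and 0.304 FPKM with both. Among the members whose windows hold a CArG box, the changes were -0.23 for ACTG1, -0.23 for ACTN1 and -0.32 for CNN2, and each of these was within 0.07 of 0 after median ratio scaling. With the length trend removed only CNN2 of these was called (-0.20, adjusted p = 0.0147). After quantile normalization only ACTG1 was (-0.42, adjusted p = 0.00522). With SB-3CT alone 3 of the 15 targets rose and 1 fell (5.37% and 6.87% of all genes), with IFNγ alone 4 rose and 1 fell (8.46% and 11.0%), and the difference between the SB-3CT changes was lower for 7 (17.6%).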

How the data were processed

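Total RNA of A375 cells was sequenced as mRNA libraries. Reads were mapped by the authors with HISAT2 2.0.5 on hg19, and StringTie 1.3.3 gave FPKM, per the labels and the methods of the study, and whether strand was used is not given in the sources used here, so overlapping and antisense genes cannot be told apart. The deposited values are log2(FPKM + 1), as their range shows (highest value 12.16), and FPKM was taken back from them where levels are given. The planned log transform of FPKM was therefore skipped. Columns were matched to samples by name, with 0 columns of values per sample left unused.

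Tests used limma 3.58.1 (R 4.3.3), with lmFit and a trended eBayes prior and no pairing, on the 3 + 3 samples of a comparison or on all 12 where SB-3CT changes were set against each other, with two-sided p-values adjusted by Benjamini-Hochberg over all 4918 genes. Log2(FPKM + 1) changes understate those of low genes, and ± is the standard error for a change and the SD of 3 samples for a level. The smallest p of an exact permutation test of 3 against 3 is 0.1. On simulated data the combination fit recovered 98.5% of 200 genes changed by 1 and 69.5% of those changed by 0.5, and called 0 genes when none was changed. The fit of the difference between the SB-3CT changes recovered 91.5% and 54%. The simulated noise was independent between genes and held no shift of scale, length trend or shared replicate deviation. These figures therefore do not cover errors from such shifts.

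The members and the other lists, written by hand, were chosen with earlier results of these data known. Values are given for ACTB, ACTG1, ACTA2 and the Arp2/3 genes, for up to 5 rises and 5 falls per comparison (adjusted p under 0.05, mean FPKM of at least 1, no overlap), for the highest and lowest members, for up to 4 members of each role group with the largest change under the combination, and for up to 3 rises and 3 falls of the other actin genes. SRF targets and CArG windows were added as descriptions, and members named for a lost call or a flip of sign were named after their values were seen. Gene positions and canonical transcript lengths were those of GENCODE v44 lifted to hg19 by its makers, with 99.4% of symbols given a length. Shared windows of 150 bases were exact matches to transcripts of other genes. Alternatives were 0.1 as pseudocount, a floor of 1 on the mean FPKM, scaling by median ratios, quantile normalization, a joint fit of the 4 groups, a block for the replicate number, leaving out single samples, and removal of a lowess trend of level on log2 length in each sample with the summed FPKM kept. The lowess trend was fitted on genes averaging 1 FPKM or more and taken from all genes, so its results are uncertain for genes below that.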

Additional observations from a re-analysis of the deposited data

Results flagged for a closer look

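For 20 of the 44 members the change with SB-3CT differed between cells with and without IFNγ by the test of the difference itself (limma over 12 samples, adjusted p under 0.05), on the log2(FPKM + 1) scale and as the change with IFNγ minus the change without. Over all genes 17.6% were called lower and 4.74% higher, and 831 and 218 of the 3407 genes in the members' FPKM range. ARPC3 stood alone in the positive direction, at 0.54.

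Among the crosslinkers and stabilisers the differences were -0.55 for CALD1, -0.55 for ACTN1, -0.53 for AFAP1, -0.49 for ACTN4 and -0.37 for CNN2. Among the capping proteins they were -0.57 for ADD3, -0.51 for ADD1 and -0.49 for EPS8. The actins gave -0.53 for ACTA2, -0.41 for ACTB and -0.35 for ACTG1. The WAVE group gave -0.47 for CYFIP1, -0.42 for ABI1 and -0.36 for CTTN, and the turnover group -0.39 for CAP1 and -0.26 for COTL1. EZR stood at -0.51, DAAM1 at -0.29 and ACTR1A at -0.26. Over genes averaging 1 FPKM or more the median difference was -0.19. After median ratio scaling 6 of the 44 were called in each direction, where 384 of all 4918 genes were higher and 257 lower. Leaving out at least 1 single sample ended the call for 8 members: ABI1, ACTA2, ACTR1A, CALD1, COTL1, CTTN, DAAM1 and EPS8.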

How the results depend on the processing

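The comparisons kept their members' counts within 1.5 times with a pseudocount of 0.1. Median ratio scaling gave 9 higher and 9 lower for the combination, 4 higher for SB-3CT, 6 higher for IFNγ, and 6 higher and 6 lower for the difference between the SB-3CT changes. Quantile normalization gave 0 higher for the combination (18 lower), 1 higher for SB-3CT, 11 lower for IFNγ, and 2 higher and 9 lower for the difference. With the length trend removed there were 9 higher and 10 lower for the combination, 9 higher for SB-3CT, 13 lower for IFNγ, and 6 higher and 11 lower for the difference. Over all 4918 genes, quantile normalization gave 346 higher for SB-3CT and 658 lower for IFNγ, and removal of the length trend 773 lower for IFNγ. Testing only genes that average 1 FPKM or more gave 4 higher and 10 lower for SB-3CT and 4 higher for IFNγ. Of all 3177 genes tested there, 366 were higher and 535 lower for SB-3CT and 432 higher for IFNγ. All 4 groups in one fit gave 4 higher and 13 lower for IFNγ, where 499 of all 4918 genes were higher and 708 lower. The cause of these moves was not tested.

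The sign of a called change turned only in the combination. After median ratio scaling it did so for ACTG1 (0.03), ACTN1 (0.02) and ARPC5 (0.03), and with the length trend removed for ABI2 (0.03), ABLIM1 (0.32), ACTN1 (0.06), ACTN4 (0.03), ACTR3 (0.02), ARPC5 (0.20), CAPZA2 (0.26), CFL2 (0.19), CORO1B (0.24), CYFIP1 (0.05) and DAAM1 (0.19), where ABLIM1, CAPZA2, CFL2 and CORO1B were not called as deposited. The turn of DAAM1 is uncertain, as its mean lies below the FPKM floor of the genes used to fit that trend.

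Over all genes the higher and lower calls, 315 and 1547 for the combination as deposited, were 811 and 760 after median ratio scaling, 542 and 714 after quantile normalization and 1398 and 754 with the length trend removed. The other splits that moved by over 10 percentage points were those of IFNγ (416 and 542, or 596 and 500 after median ratio scaling), SB-3CT (264 and 338, or 385 and 305 with the length trend removed) and the difference (233 and 866, or 384 and 257 after median ratio scaling, 295 and 345 after quantile normalization and 907 and 365 with the length trend removed). With the length trend removed, 628 of the 3407 genes in the members' FPKM range were higher and 572 lower for the combination. For the difference these counts were 327 and 310.

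With 1 sample left out, the combination gave 1 to 3 higher and 12 to 26 lower (12 without IFNγ replicate 3, 14 without replicate 3 with both agents, 15 without IFNγ replicate 1), SB-3CT 0 to 3 higher and 0 to 11 lower (0 without control replicate 3, 11 without SB-3CT replicate 1), IFNγ 0 to 5 higher and 3 to 9 lower, and the difference 1 to 2 higher and 12 to 22 lower. Fewer samples are tested in these fits, and their counts over all genes are not given.

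The replicate numbers were not shown to pair the samples: deviations of same-numbered samples correlated between -0.07 and 0.17. With the replicate number as a block the combination gave 1 higher and 21 lower, SB-3CT 2 higher and 2 lower, IFNγ 3 higher and 6 lower, and the difference 1 higher and 18 lower. Over all 4918 genes the higher and lower calls in the same order were 286 and 1323, 126 and 133, 355 and 420, and 234 and 848. Absolute depth is unknown, so counting error cannot be given for low members such as DAAM1.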

Other observations

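Of the 6 melanoma markers 4 were lower in the combination and 2 with SB-3CT alone, where 31.5% and 6.87% of all genes were lower. After median ratio scaling 2 were lower and 1 higher in the combination, beside 15.5% and 16.5% of all genes.

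Replicates differed in a shared way within groups. SB-3CT replicate 1 was the highest of its group for 30 of the 44 members, IFNγ replicate 1 for 36, and control replicate 2 was the lowest of its group for 26. The median log2(FPKM + 1) of the 44 members ran from 5.75 to 5.89 in control, 5.46 to 5.69 with SB-3CT, 5.68 to 5.86 under IFNγ and 5.14 to 5.41 with both.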
